A study of Mus musculus with 12 samples.

Results

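The genes described here are Nfe2l2, which encodes the transcription factor NRF2, its inhibitor Keap1, and 8 antioxidant genes that are well-known NRF2 targets: Slc7a11, Gclc, Gclm, Gsr, Txnrd1, Srxn1, Nqo1 and Hmox1. They were chosen by gene symbol, and all 10 were found among the 23446 genes of the deposited expression table. Nfe2l2 and Srxn1 lie on chromosome 2, Gclm and Slc7a11 on 3, Nqo1, Hmox1 and Gsr on 8, Keap1 and Gclc on 9 and Txnrd1 on 10, and all are annotated as protein-coding. The cells were C2C12, an established mouse myoblast line. Cultures in differentiation medium (DM), in which myoblasts leave the cell cycle and fuse, or in growth medium (GM), in which they divide, were given acetoacetate (AA), a ketone body, with PBS serving as the control, and the exposure lasted 12 h. The groups were DM-AA, DM-PBS, GM-AA and GM-PBS, with 3 libraries each. The labels give neither the dose nor the salt of AA, and whether separate cultures stand behind the libraries of a group is not stated. The p-values therefore measure the spread between these libraries, which may be technical.

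NRF2 is held at low levels in resting cells by KEAP1, which presents it to a ubiquitin ligase. When reactive cysteines of KEAP1 are modified by oxidants or electrophiles, NRF2 accumulates, pairs with small MAF proteins and binds antioxidant response elements of its target genes. Those targets import cystine and make glutathione, keep thioredoxin and peroxiredoxin reduced, detoxify quinones and break down haem.

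Reads assigned to genes summed to between 7959519 and 9893564 per library. All 10 genes passed the low-count filter, with 131 (Gclm) to 4264 (Nfe2l2) reads in a library, and were tested among 12230 genes. The labelled cell type was checked on Myod1, the myoblast determination factor, whose group means lay between 57.6 and 77.1 RPKM (reads scaled by gene length and by the library's reads), and by the muscle intermediate filament gene Des at 428 to 542 RPKM. With Myf5, Cdh15, Pax7, Myog and Vim they summed to 2552 to 2731 RPKM in DM-AA and 2787 to 2850 in DM-PBS. In GM-AA the sum was 2314 to 2470 RPKM, against 2663 to 2817 in GM-PBS. In both media every AA library lay below every PBS library. Of leukocyte markers, which matter here since macrophages are rich in Hmox1, Emr1 was at 0 reads in every library and Ptprc and Itgam had at most 1 read. Lyz2, Csf1r and the macrophage marker Cd68 had at most 5, 10 and 36 reads. The 6 markers together summed to 1.55 to 1.90 RPKM in DM-AA, 1.15 to 1.82 in DM-PBS, 2.03 to 2.81 in GM-AA and 2.03 to 2.43 in GM-PBS. Endothelial and adipocyte marker lists summed to at most 0.267 and 1.33 RPKM. The epithelial list summed to 13.8 to 14.3 RPKM in DM-AA, 12.7 to 14.2 in DM-PBS, 32.2 to 35.1 in GM-AA and 38.9 to 40.3 in GM-PBS. Nearly all of that was the keratin gene Krt19, with Epcam at 1 read or fewer. The part of this difference between media, and of that in the leukocyte sum, in the results below was not tested. Nor was the part of the difference with AA in the myoblast sum. In bulk RNA, fewer cells of a type and less RNA per cell cannot be told apart.

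The promoters that bear on the genes that moved are shown first. The stretches are the 250 bases before a transcription start, from RefSeq on GRCm38.p6, written on the gene's strand; the submitters' processing notes name mm9, another build. Capitals mark the core of the antioxidant response element, searched on both strands as TGACNNNGC or TGAGNNNGC. Nfe2l2 and Gclm are shown as the members whose response to AA differed between media, Srxn1 for its 3 matches, of which 2 lie in the stretch shown, Txnrd1 at the start that holds a match, Slc7a11 as the member that was higher in DM, and Nqo1 as a strongly changed gene with no match.
Nfe2l2, chr2:75704664-75704913, - strand: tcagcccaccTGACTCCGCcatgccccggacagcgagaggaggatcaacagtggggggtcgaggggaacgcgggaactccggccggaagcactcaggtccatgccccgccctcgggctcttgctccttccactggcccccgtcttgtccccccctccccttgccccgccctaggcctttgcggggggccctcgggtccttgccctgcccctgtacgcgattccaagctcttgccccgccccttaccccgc
Gclm, chr3:122245307-122245556, + strand: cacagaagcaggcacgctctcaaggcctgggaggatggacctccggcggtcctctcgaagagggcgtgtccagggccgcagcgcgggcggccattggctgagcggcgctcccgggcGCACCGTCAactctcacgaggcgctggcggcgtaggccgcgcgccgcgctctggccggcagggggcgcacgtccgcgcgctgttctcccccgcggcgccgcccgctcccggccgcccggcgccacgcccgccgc
Srxn1, chr2:152105274-152105523, + strand: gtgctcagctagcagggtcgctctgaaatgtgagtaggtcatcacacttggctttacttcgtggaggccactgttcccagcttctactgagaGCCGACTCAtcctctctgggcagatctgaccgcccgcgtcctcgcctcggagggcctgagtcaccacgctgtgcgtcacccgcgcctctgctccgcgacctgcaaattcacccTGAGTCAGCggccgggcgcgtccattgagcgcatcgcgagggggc
Txnrd1, chr10:82858956-82859205, + strand: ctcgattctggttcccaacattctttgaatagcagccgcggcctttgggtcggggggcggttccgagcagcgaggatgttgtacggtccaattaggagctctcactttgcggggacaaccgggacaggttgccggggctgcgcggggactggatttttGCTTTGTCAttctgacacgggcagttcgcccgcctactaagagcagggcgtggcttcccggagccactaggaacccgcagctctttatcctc
Slc7a11, chr3:50443614-50443863, - strand: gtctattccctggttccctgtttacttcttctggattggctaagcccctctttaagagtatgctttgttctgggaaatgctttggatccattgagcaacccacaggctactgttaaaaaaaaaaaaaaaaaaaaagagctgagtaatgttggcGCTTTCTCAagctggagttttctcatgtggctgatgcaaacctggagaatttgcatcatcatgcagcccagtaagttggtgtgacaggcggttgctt
Nqo1, chr8:107403206-107403455, - strand: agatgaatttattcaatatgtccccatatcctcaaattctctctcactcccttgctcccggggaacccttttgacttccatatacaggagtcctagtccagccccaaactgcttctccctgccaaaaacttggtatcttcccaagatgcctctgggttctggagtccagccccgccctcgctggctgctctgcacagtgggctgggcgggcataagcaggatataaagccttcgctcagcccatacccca

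RefSeq gave 9 windows of 250 bases before to 50 after a start for 7 of the 10 genes (all but Hmox1, Gclc and Gsr), and 5 windows, of 5 genes, held a match. Of 32851 such windows in the mouse genome, 27.8% held one. In Nfe2l2 the match read TGACTCCGC and began 240 bases before the start, and in Gclm it read TGACGGTGC on the opposite strand, at 134 bases before the start. Srxn1 held TGAGTCAGC at 45 bases before the start, which overlaps the AP-1 motif TGAGTCA, TGAGTCGGC on the opposite strand at 158 bases before it, and TGACCTAGC within the transcribed part. The matches of Txnrd1 (TGACAAAGC) and Slc7a11 (TGAGAAAGC) lay on the opposite strand, 92 and 97 bases before their starts. The windows of Keap1 and Nqo1, and the other starts of Txnrd1, held none, which says only that these letters are not in those windows. A match is a description of sequence and was not tied to binding by any measurement here.

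Per length, Nfe2l2 was the most abundant of the 10 genes in every group, with means from 94.7 RPKM in DM-AA to 124 RPKM in GM-AA. Txnrd1 and Hmox1 followed in GM, at 46.6 to 49.3 and 47.6 to 50.1 RPKM. Gclc, Gclm and Gsr were the least abundant, with group means between 5.45 and 9.03 RPKM. The plot of RPKM by library shows the main patterns: Hmox1, Nqo1, Srxn1 and Gsr were separated by medium, and Gclm was low in DM-AA alone. Nfe2l2 and Txnrd1, the latter narrowly, were also lower in every DM library than in every GM library. Slc7a11 was separated by medium the other way, higher in DM.

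**Figure D1:**
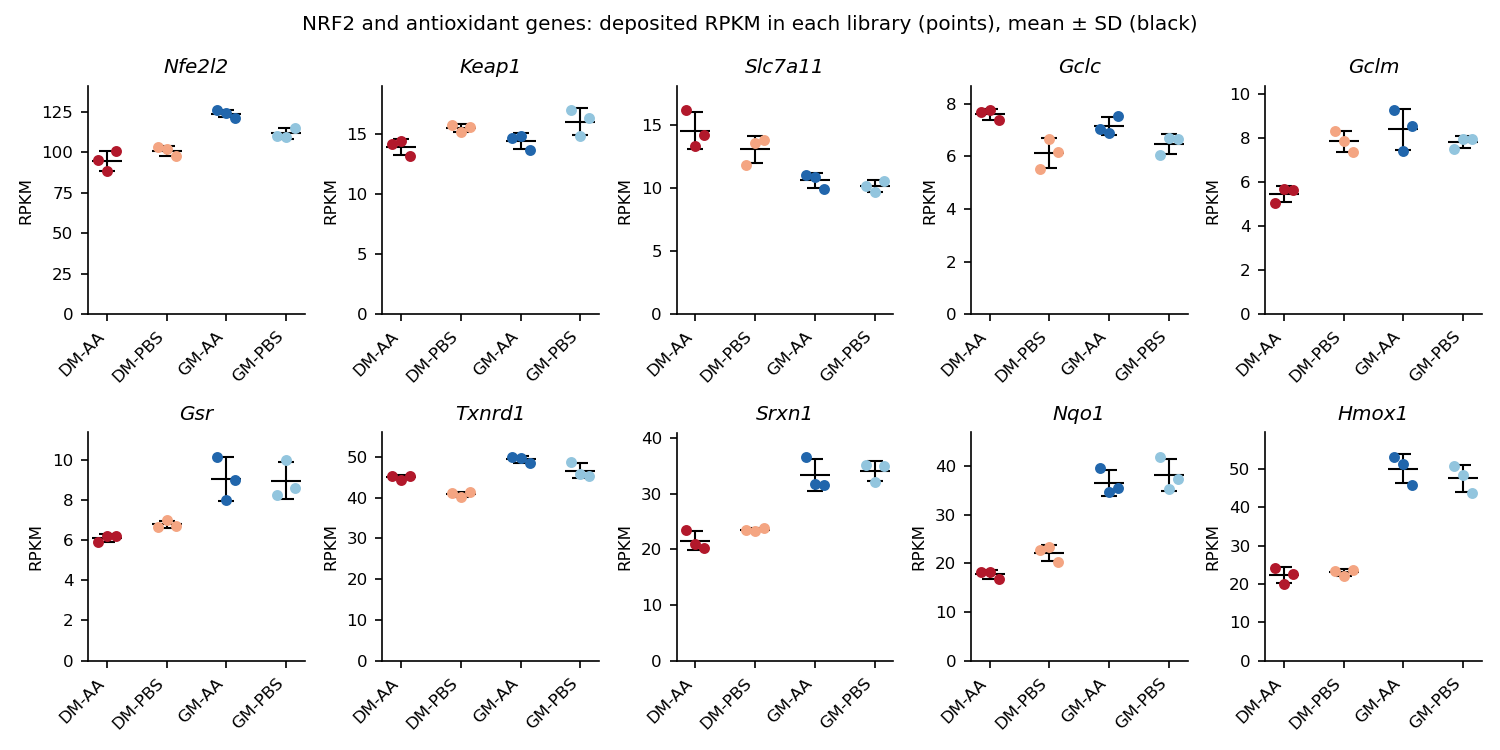
Deposited RPKM of the 10 genes in each of the 12 libraries (points), with the mean and SD of 3 libraries per group (black bars); each vertical axis starts at 0. Hmox1 lay between 20.1 and 24.1 RPKM in the 6 DM libraries and between 43.8 and 53.2 RPKM in the 6 GM libraries, and Gclm lay between 5.05 and 5.69 RPKM in DM-AA against 7.35 to 8.31 RPKM in DM-PBS.

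The first question was which of these genes responded to AA in differentiating cells. In DM, the 2 subunits of glutamate-cysteine ligase, the enzyme of the first step of glutathione synthesis, moved in opposite directions: Gclm, the modifier subunit, fell to 0.688 of its DM-PBS level, and Gclc, the catalytic subunit, rose 1.24-fold. Nqo1, the quinone reductase, fell to 0.795 of its DM-PBS level, and Txnrd1, the cytosolic thioredoxin reductase, rose 1.09-fold. Keap1 fell to 0.891 of its DM-PBS level. In all, 2 of the 10 genes rose and 3 fell, where 26.4% of the 12230 tested genes were past the test in either direction. The test was edgeR's quasi-likelihood test, passed where the p adjusted by Benjamini-Hochberg over the 12230 genes was under 0.05. Fold changes below are log2 values ± SE from that fit with n = 3 libraries per group. CPM are counts set relative to the library total as adjusted by edgeR's TMM scaling. In CPM, the 3 AA libraries lay wholly to one side of the 3 PBS libraries for 6 of the 10 genes, against 40.1% of all tested genes. Without DM-PBS 1 the genes past the test numbered 3.

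Gclm had 5.05, 5.69 and 5.62 RPKM in DM-AA, against 8.31, 7.84 and 7.35 RPKM in DM-PBS. Every DM-AA library lay below every DM-PBS library, by more than the range within either group. The log2 fold change was -0.54 ± 0.097 (edgeR, adjusted p = 6.26e-05), and the adjusted p lay between 2.06e-06 and 0.00145 under all 15 alternatives tried. The deposited table gives Gclm a length of 2072 bases; 3.88% of its current exon bases overlap another gene on the same strand and 4.71% one on the opposite strand.

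Gclc had 7.69, 7.74 and 7.36 RPKM in DM-AA, against 5.52, 6.67 and 6.18 RPKM in DM-PBS. The groups did not overlap, and DM-PBS was the more scattered of the 2. Gclc was higher by 0.31 ± 0.078 (edgeR, adjusted p = 0.00330), a call kept under all 15 alternatives with an adjusted p of at most 0.0485, reached without DM-PBS 1. Taken per library, the ratio of Gclc to Gclm was 1.52, 1.36 and 1.31 in DM-AA, against 0.664, 0.851 and 0.841 in DM-PBS. The ratio was 0.763, 0.932 and 0.885 in GM-AA, against 0.807, 0.844 and 0.837 in GM-PBS, so that DM-AA was the one group above 1. The ratio does not depend on library scaling, but the side of 1 on which it lies depends on the gene lengths used. Gclm has 2072 bases in the deposited data and 6291 current exon bases, and Gclc has 3427 and 3766. The ratio was chosen after the values of both genes had been seen. It was 1.79-fold higher with AA in DM (exact permutation test, two-sided, p = 0.1, the smallest that 3 against 3 libraries allow) and 1.03-fold higher with AA in GM (exact permutation test, p = 0.6). With each library left out in turn, the difference in DM was 0.72 to 0.90 on the log2 scale.

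**Figure D2:**
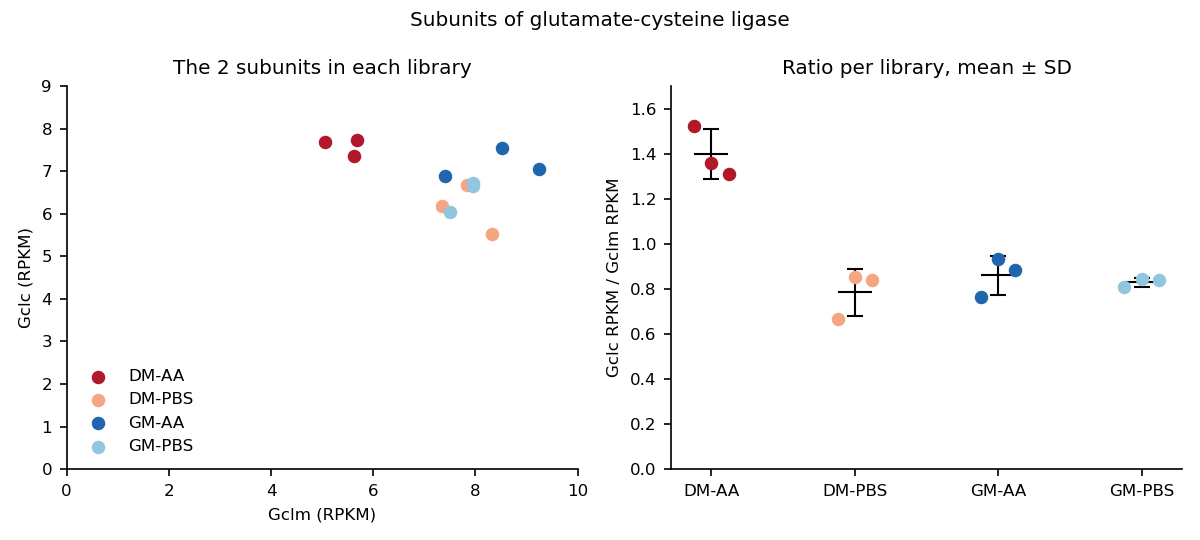
Left, RPKM of Gclc (vertical) against Gclm (horizontal) in the 12 libraries; right, the ratio of the 2 in each library with the mean and SD of 3 libraries per group. The mean ratio was 1.40 ± 0.111 in DM-AA, 0.785 ± 0.105 in DM-PBS, 0.860 ± 0.0870 in GM-AA and 0.829 ± 0.0197 in GM-PBS (SD, n = 3 each).

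Of the remaining enzymes in DM, Nqo1 had 18.3, 18.2 and 16.8 RPKM with AA, against 22.7, 23.4 and 20.2 RPKM with PBS. The groups did not overlap, and Nqo1 was lower by the model, at -0.33 ± 0.076 (edgeR, adjusted p = 0.00117), under all 15 alternatives. Txnrd1 had 45.3, 44.4 and 45.2 RPKM in DM-AA, against 41.1, 40.1 and 41.3 RPKM in DM-PBS, a narrow but full separation. Its rise was 0.13 ± 0.045 (edgeR, adjusted p = 0.0344), and the call was lost when any 1 of the 6 DM libraries was left out, with adjusted p from 0.0516 to 0.111. The other enzymes were not past the test. Slc7a11, the cystine importer, was at 0.15 ± 0.061 (adjusted p = 0.0715), with 95% limits of 0.02 and 0.27. It was past the test without DM-AA 2 (adjusted p = 0.0206), without DM-PBS 3 (adjusted p = 0.0375) and with no low-count filter (adjusted p = 0.0213). With each library's trends with GC content and length removed, Slc7a11 was at 0.076 (adjusted p = 0.432). Srxn1, sulfiredoxin, which reactivates oxidised peroxiredoxins, was at -0.14 ± 0.061 (adjusted p = 0.0889), and it passed without DM-AA 1 (adjusted p = 0.0180). With the same trends removed, Srxn1 was at -0.0998 (adjusted p = 0.214). Gsr, glutathione reductase, was at -0.16 ± 0.093 (adjusted p = 0.205), although its 5.89, 6.20 and 6.23 RPKM in DM-AA all lay below the lowest DM-PBS library, at 6.67 RPKM. Hmox1, haem oxygenase, was at -0.060 ± 0.073 (adjusted p = 0.593), with 95% limits of -0.21 and 0.09.

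For the regulators in DM, Keap1 had 14.2, 14.4 and 13.2 RPKM with AA, against 15.8, 15.2 and 15.6 RPKM with PBS. Its fold change was -0.17 ± 0.055 (edgeR, adjusted p = 0.0240). Exons of a gene on the opposite strand cover 10.9% of Keap1, and the strand of the reads is not given in the sources used here, so its count is uncertain. The transcript of Keap1 has 58.0% GC, above 90.4% of the tested genes. Across genes, the deviation of a library from the mean of all libraries was related to GC content, with a Spearman's rho of -0.148 to -0.0612 in DM-AA, 0.127 to 0.150 in DM-PBS, -0.177 to -0.114 in GM-AA and 0.00536 to 0.211 in GM-PBS. With the trends with GC and with length taken out together, and neither alone, Keap1 was at -0.082 in DM (adjusted p = 0.248). With DESeq2 its adjusted p was 0.0668, and without DM-AA 3, DM-PBS 1 or DM-PBS 3 its adjusted p was 0.156, 0.0986 and 0.0534. Nfe2l2 itself had 94.9, 88.5 and 101 RPKM in DM-AA, against 103, 102 and 97.6 RPKM in DM-PBS, and the groups overlapped. It was at -0.10 ± 0.048 (adjusted p = 0.110); with the GC and length trend removed it was past the test at -0.13 (adjusted p = 0.0242), as it was without DM-AA 3 (adjusted p = 0.0398).

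In growth medium, Nfe2l2 rose 1.10-fold with AA and Keap1 fell to 0.891 of its GM-PBS level, and none of the 8 target genes was past the test. The 2 of 10 genes past the test stand beside 20.7% of all tested genes, and the libraries of the 2 groups were fully separated in CPM for 3 of the 10 genes (Nfe2l2, Gclc and Keap1), against 34% of all tested genes. Both calls were small and easily lost. Without GM-AA 3 or GM-PBS 1 none of the 10 genes was past the test, and 1 was when any other GM library was left out.

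Nfe2l2 had 126, 124 and 121 RPKM in GM-AA, against 110, 110 and 115 RPKM in GM-PBS. Every GM-AA library lay above every GM-PBS library. Its fold change was 0.14 ± 0.047 (edgeR, adjusted p = 0.0299), and the adjusted p rose to between 0.0519 and 0.0838 when any GM library other than GM-PBS 3 was left out and to 0.0585 with the GC and length trend removed. Keap1 had 14.7, 14.9 and 13.7 RPKM in GM-AA, against 17.0, 14.9 and 16.4 RPKM in GM-PBS, so that GM-PBS 2 fell just below the highest GM-AA library and the groups overlapped in RPKM, though not in CPM. Keap1 was at -0.17 ± 0.055 (edgeR, adjusted p = 0.0263). That call was lost after correction for GC and length (-0.095, adjusted p = 0.185), with DESeq2 (adjusted p = 0.0633), with only the GM groups fitted (adjusted p = 0.0513), and without GM-PBS 1 (adjusted p = 0.175), GM-AA 3 (adjusted p = 0.120) or GM-PBS 3 (adjusted p = 0.0928). GM-PBS 1 was also the library with the strongest trend with GC, at a rho of 0.211.

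Among the targets in GM, Gclc came closest, at 0.14 ± 0.077 (adjusted p = 0.219); its 7.05, 6.89 and 7.54 RPKM in GM-AA lay above the 6.05, 6.71 and 6.66 RPKM in GM-PBS. Gclm had 9.24, 7.40 and 8.52 RPKM in GM-AA, against 7.49, 7.95 and 7.96 RPKM in GM-PBS, and the groups overlapped widely. Its fold change was 0.095 ± 0.089 (adjusted p = 0.493), with 95% limits of -0.09 and 0.28. The fold changes of Hmox1, Txnrd1, Slc7a11, Gsr, Srxn1 and Nqo1 in GM lay between -0.073 (Nqo1) and 0.072 (Txnrd1), with an adjusted p of at least 0.262. The 95% limits of these 6 genes reached no lower than -0.20 (Nqo1) and no higher than 0.18 (Slc7a11 and Hmox1).

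**Figure D3:**
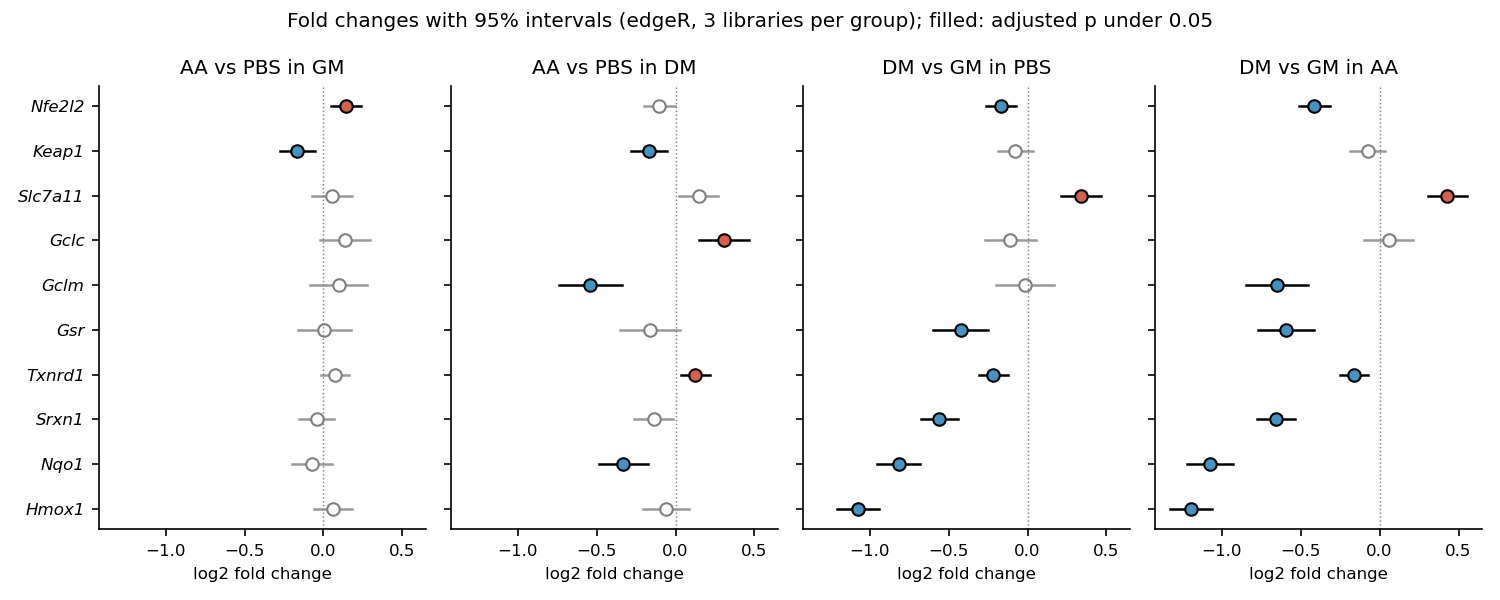
Log2 fold changes of the 10 genes in 4 comparisons, with 95% intervals from edgeR's quasi-likelihood fit (n = 3 libraries per group); filled points have an adjusted p under 0.05, red for higher and blue for lower. With AA the farthest gene from 0 was Gclm in DM at -0.54, while Hmox1 and Nqo1 reach -1.19 and -1.07 in the comparison of media under AA.

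Whether AA acted differently in the 2 media was tested directly, as its effect in DM minus that in GM. It was past the test for 2 of the 10 genes, Gclm and Nfe2l2, both with a negative difference, against 5.24% of all tested genes in either direction, 2.58% above 0 and 2.67% below 0. For Gclm, AA changed the level by -0.54 in DM and 0.095 in GM, a difference of -0.63 ± 0.13 (edgeR, adjusted p = 0.00211). For Nfe2l2 the AA effect was -0.10 in DM and 0.14 in GM, a difference of -0.24 ± 0.067 (edgeR, adjusted p = 0.0237). The difference for Nfe2l2 was no longer past the test without DM-AA 2, DM-PBS 1, DM-PBS 2, GM-AA 2 or GM-PBS 2 (adjusted p from 0.0526 to 0.112). Nqo1 was at -0.26 ± 0.098 (adjusted p = 0.135), past the test without GM-PBS 1 (adjusted p = 0.0358). For Keap1 the difference was 0.001 ± 0.078, with 95% limits of -0.16 and 0.16, and for Gclc it was 0.17 ± 0.11 (adjusted p = 0.478). The difference was not past the test for Slc7a11, Gsr, Txnrd1, Srxn1 or Hmox1 either, with values from -0.17 (Gsr) to 0.093 (Slc7a11) and adjusted p from 0.550 to 0.746.

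The comparison of media gave the largest changes. Hmox1, Nqo1, Srxn1, Gsr, Txnrd1 and Nfe2l2 were lower in DM than in GM with and without AA, and Slc7a11 was the one member that was higher in DM. In cells given PBS, 1 of the 10 genes rose and 6 fell, where 54.4% of all tested genes were past the test in either direction, 27% higher and 27.4% lower. In cells given AA, 1 rose and 7 fell, where 52.2% were past the test, 25.9% higher and 26.3% lower. The comparisons under PBS and under AA share no library. All 6 genes lower under PBS were among the 7 lower under AA, the addition being Gclm. How many of all tested genes were lower in both was not counted, so this overlap has no background beside it. The 3 libraries of each medium were fully separated in CPM for 7 of the 10 genes under PBS and 8 under AA, against 59.4% and 57.4% of all tested genes. Each of these comparisons shares libraries with the AA comparisons above, so the sets of values are not independent.

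Hmox1, which frees iron and biliverdin from haem, had the largest change. It had 23.4, 22.0 and 23.7 RPKM in DM-PBS, against 50.7, 48.4 and 43.8 RPKM in GM-PBS, and 24.1, 20.1 and 22.7 RPKM in DM-AA, against 53.2, 51.2 and 45.8 RPKM in GM-AA. No DM library came near a GM library. The fold change was -1.07 ± 0.065 under PBS (edgeR, adjusted p = 9.82e-16) and -1.19 ± 0.066 under AA (adjusted p = 7.42e-17). Nqo1 had 41.9, 35.3 and 37.4 RPKM in GM-PBS, set beside its DM-PBS values above, and 39.7, 34.6 and 35.6 RPKM in GM-AA. Its level in DM was 0.568 of that in GM under PBS and 0.475 under AA, with log2 values of -0.82 ± 0.067 and -1.07 ± 0.071 (edgeR, adjusted p = 2.48e-12 and 8.21e-15). Its levels were highest in GM-PBS and lowest in DM-AA, with the 2 GM groups not separated beyond their spread.

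Srxn1 had 23.5, 23.3 and 23.9 RPKM in DM-PBS, against 35.2, 32.1 and 35.0 RPKM in GM-PBS, and 23.5, 21.0 and 20.2 RPKM in DM-AA, against 36.6, 31.8 and 31.5 RPKM in GM-AA. All 6 DM libraries lay below all 6 GM libraries. Its fold change was -0.56 ± 0.057 under PBS and -0.66 ± 0.058 under AA (edgeR, adjusted p = 4.18e-10 and 1.70e-11). Txnrd1 fell by 0.22 ± 0.045 under PBS and by 0.16 ± 0.044 under AA (edgeR, adjusted p = 1.11e-04 and 0.00253), with 45.7 to 48.7 RPKM in GM-PBS and at least 48.4 RPKM in GM-AA.

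In the glutathione branch, Slc7a11, which with the heavy chain Slc3a2 exchanges cystine for glutamate, had 11.8, 13.6 and 13.8 RPKM in DM-PBS, against 10.2, 9.66 and 10.6 RPKM in GM-PBS, and 16.2, 13.3 and 14.2 RPKM in DM-AA, against 9.89 to 11.01 RPKM in GM-AA. It rose by 0.34 ± 0.062 under PBS and 0.43 ± 0.062 under AA (edgeR, adjusted p = 2.46e-05 and 4.13e-07), while Slc3a2 fell by 0.45 ± 0.056 and 0.63 ± 0.056. Gsr fell by 0.42 ± 0.086 under PBS and 0.59 ± 0.088 under AA (edgeR, adjusted p = 8.68e-05 and 8.02e-07), with 8.24, 10.0 and 8.60 RPKM in GM-PBS and 10.1, 7.98 and 8.97 RPKM in GM-AA. Gclm fell by 0.65 ± 0.096 under AA (edgeR, adjusted p = 7.18e-07) and was at -0.014 ± 0.090 under PBS, with 95% limits of -0.20 and 0.17. Gclc was at -0.11 ± 0.079 under PBS and 0.057 ± 0.075 under AA (adjusted p = 0.244 and 0.552).

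Nfe2l2 fell by 0.17 ± 0.047 under PBS and by 0.41 ± 0.047 under AA (edgeR, adjusted p = 0.00278 and 4.89e-09). Its levels ran in the order GM-AA, GM-PBS, DM-PBS and DM-AA, with the 2 DM groups not separated beyond their spread. Keap1 was at -0.077 ± 0.054 under PBS and -0.076 ± 0.056 under AA (adjusted p = 0.236 and 0.262). After correction for GC and length, Keap1 was past the test in both, at -0.16 (adjusted p = 0.00757) and -0.14 (adjusted p = 0.0173). The calls of the other genes in the comparison of media were kept under all 15 alternatives.

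The genes whose pattern over the 4 groups was most like that of the 3 most variable members were sought among 7590 genes with a mean of at least 5 RPKM. Likeness was the root mean square difference between 2 genes in their 4 group means of log2 CPM, each gene centred on its own mean. For Hmox1 these were Lgals3, which encodes galectin-3, and Hr, at 0.038 and 0.040. For Nqo1 they were Ccnd1, which encodes cyclin D1, and AI413582, at 0.030 and 0.036. For Srxn1 they were Hgsnat, a lysosomal acetyltransferase, and Pfkp, a phosphofructokinase, at 0.013 and 0.014.

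Another 73 genes of the same system, listed by role, were read in the same fits, and 71 had enough reads to be tested. With AA in DM, 5 rose and 21 fell, with a median log2 fold change of -0.082, against a median of 0.002 over all tested genes, of which 12.6% rose and 13.8% fell. With AA in GM, 9 rose and 16 fell, with a median of -0.041, against -0.003 over all tested genes, of which 9.76% rose and 11% fell. Between media, 21 of the 71 rose and 23 fell in DM under PBS, where 27% of all tested genes rose and 27.4% fell, and 22 rose and 25 fell under AA, where 25.9% rose and 26.3% fell. The lists were written with earlier results of these data known. These shares of all tested genes are also the ones to set beside the counts of each list below.

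Of the 11 regulators, 0 rose and 4 fell with AA in DM, and 1 rose and 2 fell in GM. With the replicate block together with removal of the GC and length trend, those that fell in DM numbered 2. Maff, a small MAF protein that can pair with NRF2, had the largest change: it fell by 0.81 ± 0.082 in DM and by 0.63 ± 0.059 in GM (edgeR, adjusted p = 2.10e-09 and 8.64e-10), and it was lower in DM than in GM by 1.46 ± 0.064 under PBS. Its mean levels were 8.67 RPKM in DM-AA, 15.1 in DM-PBS, 26.6 in GM-AA and 40.9 in GM-PBS. Sqstm1, the autophagy receptor p62 that binds KEAP1, fell by 0.22 ± 0.044 with AA in DM (adjusted p = 2.66e-04) and was at -0.019 in GM; exons on the opposite strand cover 17.3% of it. Bach1, the repressor that competes with NRF2 at Hmox1, was higher in DM than in GM by 0.37 ± 0.055 under PBS and 0.32 ± 0.054 under AA, while the kinase Gsk3b was lower by 0.33 ± 0.055 in both. Btrc, an adaptor for NRF2 degradation, was higher in DM by 0.32 ± 0.078 under PBS and 0.40 ± 0.079 under AA, and Nfe2l1, an NRF2 relative, by 0.29 ± 0.043 under PBS.

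Of 21 tested glutathione genes, 0 rose and 4 fell with AA in DM, and 2 rose and 3 fell in GM. Glrx, glutaredoxin, fell by 0.46 ± 0.077 in DM and 0.35 ± 0.071 in GM, and Gsto1, an omega-class glutathione transferase, fell by 0.46 ± 0.065 in DM. Gstm1, a mu-class transferase of a family with similar copies, fell by 0.35 ± 0.060 in DM, and Mgst3, a microsomal transferase, fell by 0.39 ± 0.089 in GM (edgeR, adjusted p = 0.00140). Between media, 5 rose and 9 fell under PBS and 5 rose and 11 fell under AA. The peroxidases Gpx1 and Gpx3 were higher in DM by 0.82 ± 0.048 and 0.79 ± 0.086 under PBS, while Gpx8, a peroxidase of the endoplasmic reticulum, was lower by 0.56 ± 0.049 and the exporter Abcc1 by 0.41 ± 0.049.

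Of 11 tested thioredoxin and peroxiredoxin genes, 3 rose and 2 fell with AA in DM, and 2 rose and 1 fell in GM. Mitochondrial thioredoxin, Txn2, rose by 0.27 ± 0.054 in DM, and Txnrd3, a thioredoxin glutathione reductase with few reads, fell by 0.61 ± 0.16. Between media, 3 rose and 3 fell under PBS and 4 rose and 3 fell under AA. Prdx5 and Txn2 were lower in DM by 0.53 ± 0.060 and 0.47 ± 0.053 under PBS, and the cytosolic peroxiredoxin Prdx2 and thioredoxin Txn1 were higher by 0.34 ± 0.057 and 0.26 ± 0.049. Exons on the opposite strand cover 19.1% of Prdx5 and 11.5% of Prdx2. Prdx6, a peroxidase that uses glutathione, was the only gene of the 71 for which the AA effects in DM and GM differed past the test in the main fit. The difference for Sqstm1 was past it under 8 of 20 alternatives, with DESeq2 (adjusted p = 0.0282) among them. Of the other genes named here, Gstm1 and Gsto1 passed under 2 of the 20 each, and Idh1 and Prdx4 under 1 each. Genes not named were not followed singly. In the glutathione list 1 gene passed without DM-AA 3, and it was neither Gstm1 nor Gsto1. Prdx6 had 45.4, 44.3 and 45.1 RPKM in DM-AA, against 39.2, 41.0 and 40.1 RPKM in DM-PBS, and 38.3, 35.4 and 35.8 RPKM in GM-AA, against 38.01 to 40.6 RPKM in GM-PBS. Its AA effect was 0.15 ± 0.047 in DM (edgeR, adjusted p = 0.0135), a call lost without DM-PBS 1 (adjusted p = 0.0675), and -0.13 ± 0.048 in GM (adjusted p = 0.0563). In GM it was past the test with the GC and length trend removed, alone (adjusted p = 0.0230) or with the replicate block (adjusted p = 0.0265). The same held without GM-AA 1 (adjusted p = 0.0385) and without GM-PBS 3 (adjusted p = 0.0483).

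Of 20 genes of superoxide, iron, haem and detoxification, 1 rose and 6 fell with AA in DM, and 4 rose and 6 fell in GM; without GM-AA 3 those that fell in GM numbered 3. Those that rose in GM numbered 1 without GM-AA 1 or GM-PBS 3 and with DESeq2, and 2 without GM-AA 2 or GM-AA 3, with no low-count filter, with a replicate block and with only the GM groups fitted. The mitochondrial and extracellular superoxide dismutases, Sod2 and Sod3, fell by 0.32 ± 0.066 and 0.29 ± 0.064 in DM and by 0.24 ± 0.059 and 0.32 ± 0.072 in GM. Ugdh, which makes the UDP-glucuronate used in conjugation, fell by 0.30 ± 0.055 and 0.34 ± 0.051. The metal-binding metallothioneins Mt1 and Mt2 fell by 0.40 ± 0.077 and 0.48 ± 0.089 in DM, and they were lower in DM than in GM by 1.14 ± 0.077 and 1.15 ± 0.088 under PBS. With AA in GM they fell as well, calls lost under 5 (Mt1) and 4 (Mt2) of 15 alternatives. Exons on the opposite strand cover 73.5% of Mt2. The iron exporter Slc40a1 (ferroportin) rose by 0.58 ± 0.14 with AA in GM, where it had means of 2.11 RPKM in GM-AA and 1.40 RPKM in GM-PBS, and was higher in DM than in GM by 2.28 ± 0.11 under PBS and 1.85 ± 0.10 under AA. Between media, 7 of the 20 rose and 7 fell under PBS, and 6 rose and 7 fell under AA.

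Of 8 genes that supply NADPH, the reductant on which Gsr, Txnrd1 and Nqo1 draw, 1 rose and 5 fell with AA in DM, and 0 rose and 4 fell in GM. Of all tested genes, 12.6% rose and 13.8% fell in DM, and 9.76% rose and 11% fell in GM. Idh1, the cytosolic isocitrate dehydrogenase, fell by 0.53 ± 0.052 in DM and 0.35 ± 0.057 in GM (edgeR, adjusted p = 8.10e-10 and 2.97e-05), and Pgd, of the pentose phosphate pathway, fell by 0.38 ± 0.057 and 0.31 ± 0.057. Idh2, the mitochondrial form, rose by 0.21 ± 0.049 in DM. In GM, Pgls and Tkt, also of the pentose phosphate pathway, fell by 0.43 ± 0.072 and 0.29 ± 0.071. Both also fell with AA in DM, calls lost under 7 (Pgls) and 6 (Tkt) of 15 alternatives. A same-strand neighbour's exons cover 20.6% of Pgls. In DM the genes that fell numbered 3 without DM-AA 2, DM-PBS 2 or DM-PBS 3, 2 without DM-AA 3, and 3 with DESeq2 or with the GC and length trend removed. Between media, 2 rose and 1 fell under PBS and 3 rose and 1 fell under AA, and Idh1 was higher in DM by 1.22 ± 0.054 and 1.04 ± 0.056.

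**Figure D4:**
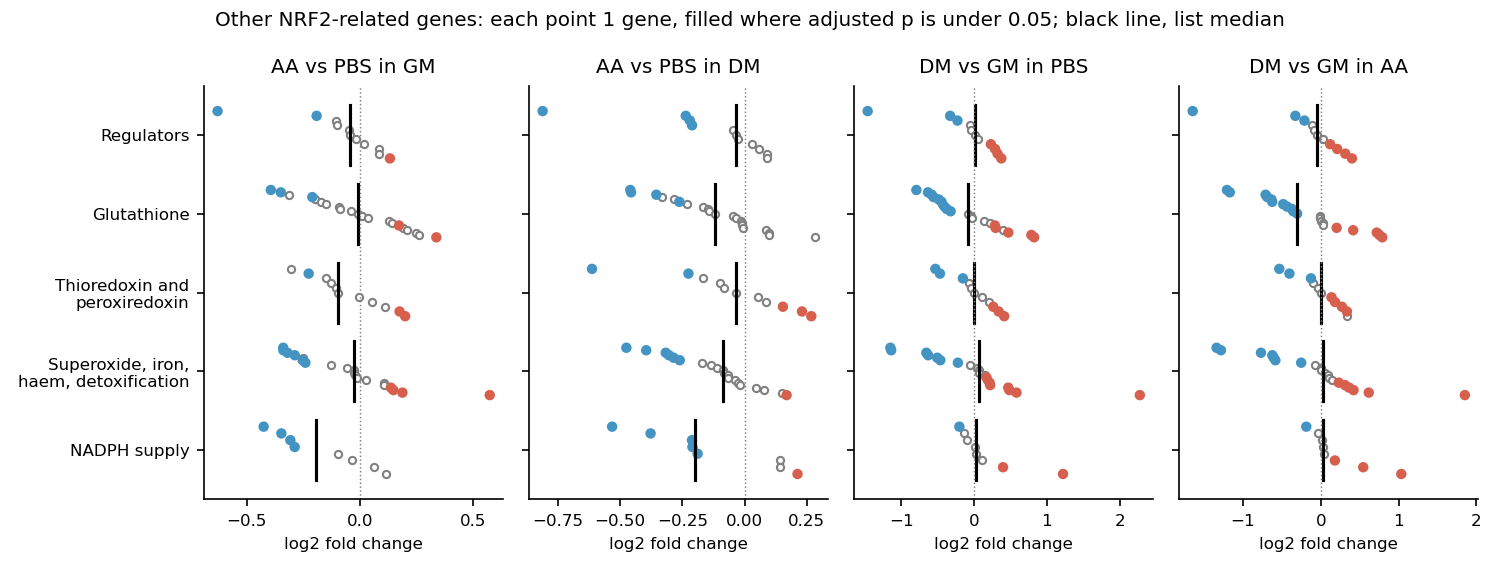
Log2 fold changes of the 71 tested genes of 5 role lists in 4 comparisons; each point is 1 gene, filled where the adjusted p was under 0.05 (red higher, blue lower), and the black line is the list's median. The horizontal scales differ between panels. The NADPH list has the lowest medians with AA, -0.199 in DM and -0.192 in GM.

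Some genes chosen by the same rule had calls that were lost without 1 library. With AA in DM these were Mgst3 (without DM-AA 1, DM-AA 3 or DM-PBS 2), Mafg (without DM-AA 1 or DM-PBS 1), Mafk (without DM-AA 3), Prdx5 (without DM-AA 2), and Prdx4 and G6pdx (each without DM-AA 2, DM-AA 3 or DM-PBS 3), with fold changes of -0.26, -0.21, -0.24, -0.23, 0.23 and -0.19. With AA in GM they were Nfe2l1 at 0.13 (without GM-AA 2 or either of GM-PBS 1 and GM-PBS 2), Gsto1 at -0.21 (without GM-AA 3 or GM-PBS 2), Slc3a2 at 0.17 (without GM-AA 2 or GM-PBS 3), Txn2 at 0.20 (without GM-PBS 3) and Txn1 at 0.18 (without GM-PBS 1). Mafk in GM, at -0.19, was lost under 13 of 15 alternatives, among them without any GM library other than GM-PBS 2, and Prdx5 in GM, at -0.23, after correction for GC and length (adjusted p = 0.0894). Between media they were Pgls under PBS at -0.20 (without DM-PBS 1 or GM-PBS 1) and, under AA, G6pdx at -0.19 (without DM-AA 2 or DM-AA 3) and Tkt at 0.18 (without DM-AA 1, DM-AA 2, GM-AA 1 or GM-AA 3). Some of these calls were also lost under other alternatives. With AA in DM, Mafg was lost after correction for GC and length (adjusted p = 0.0714). Mafk in DM was lost after that correction (adjusted p = 0.0590) and with DESeq2 (adjusted p = 0.0601), and Mgst3 in DM with DESeq2 (adjusted p = 0.0686). Tkt between media under AA was lost with DESeq2 (adjusted p = 0.0740) and after correction for GC and length (adjusted p = 0.0619). Of the 50 counts by list, direction and comparison, 18 moved by over 1.5 times without 1 library, and 16 of those were counts of 4 or fewer.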

How the data were processed

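RNA of C2C12 cells was sequenced in 12 libraries, 3 per group. Per the submitters' processing notes, the authors used BWA 0.5.9-r16 and the mm9 build; how reads were assigned to genes, and whether strand was used, is not given in the sources used here. Deposited were raw read counts and RPKM of 23446 genes, with gene lengths, per the file headers, and 0 value columns were left unmatched to a sample. The authors' RPKM equalled counts per length and a single divisor per library within 0.000498%.

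The 10 genes, the role lists and the rule for naming genes were chosen with earlier results of these data known. The rule named the 10 members, up to 4 genes per list and comparison past the test with the smallest p, and the nearest patterns. Of the 73 listed genes, Gpx7 had too few reads and Sepx1 was not analysed here.

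Counts were tested with edgeR 4.0.16 in R 4.3.3 (filterByExpr, TMM, quasi-likelihood, two-sided, 1 fit of 4 group means to 12 libraries), with p-values adjusted over 12230 genes at an FDR of 5%. The fit was also run on simulated counts with the same AA changes in both media. Those counts held no difference between media, no difference of AA effects and no GC trend. Recovery of such changes was therefore not checked. The SE is the absolute log2 fold change over the square root of F. The common biological coefficient of variation was 4.08%. Libraries within groups differed by more than counting noise (chi-square over its degrees of freedom, 1.45 to 2.89). GENCODE M21, on GRCm38, gave gene names, exon overlaps and the GC content of 12144 tested genes. Alternatives were RLE scaling, the RPKM divisor as library size, no filter, a filter at 10 CPM, DESeq2 1.42.0, removal of each library's GC and length trend, a replicate block, fitting only the compared groups, and leaving out each library.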

Additional observations from a re-analysis of the deposited data

Results flagged for a closer look

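Prdx6 and the members Gclm and Nfe2l2 stood out since the effect of AA differed between media by the test of the difference itself. For Gclm the AA effect was -0.54 in DM and 0.095 in GM on the log2 scale, a difference of -0.63 (edgeR, adjusted p = 0.00211). For Prdx6 the AA effect was 0.15 in DM and -0.13 in GM, a difference of 0.28 (edgeR, adjusted p = 0.00791). For Nfe2l2 it was -0.10 in DM and 0.14 in GM, a difference of -0.24 (edgeR, adjusted p = 0.0237). The difference for Nfe2l2 was not past the test under 5 of 20 alternatives, namely without DM-AA 2, DM-PBS 1, DM-PBS 2, GM-AA 2 or GM-PBS 2 (adjusted p from 0.0526 to 0.112), while those for Gclm and Prdx6 were past it under all 20.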

How the results depend on the processing

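Over the 230 fold changes of named genes, 3516 of 3675 values under an alternative stayed on their side of the threshold, 125 were no longer past it and 34 newly passed it. The sign turned in 98 of the values, all of genes not past the test, and in 0 values of called genes. The cause of the changes was not tested. Members past the test in GM under AA numbered 1 with DESeq2 and with only the compared groups fitted, 0 with the GC and length trend removed and 0 with the replicate block together with that removal, and 0 to 1 with a library left out. In DM under AA they numbered 3 to 5 with a library left out, and for the difference of AA effects 1 to 3. Of the other NRF2-related genes, those past the test of the difference numbered 4 with no low-count filter, 2 with the filter at 10 CPM, 2 with DESeq2, 2 with the GC and length trend removed, 2 with the replicate block together with that removal, and 1 to 5 with a library left out. Same-numbered libraries showed no strong shared deviation: their deviations from the group means correlated at -0.0676 to 0.0823 over 18 pairs. Different-numbered libraries were not compared, so this does not settle whether replicate numbers pair the samples. With the replicate block, the genes past the test were 2444 in GM and 3109 in DM under AA, 6588 and 6332 between media under PBS and AA, and 590 for the difference, and the members past the test stayed at 2, 5, 7, 8 and 2. Of the 10 members, Gclm had the fewest reads, 131 in its lowest library.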
